A study of Mus musculus with 282 samples.

Results

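The genes described here are 8 writers, erasers and partners of DNA methylation, taken by symbol from the 49671 Ensembl genes of a count table of single hematopoietic stem cells (HSCs): Dnmt1, Uhrf1, Hells, Dnmt3a, Dnmt3b, Tet1, Tet2 and Tet3. Each of the 8 symbols matched 1 row of the table. The cells came from the bone marrow of mice homozygous for rtTA at Rosa26 and for H2B-GFP at Col1a1, and they had not been exposed to doxycycline, the drug that would switch the fluorescent histone on. They were sorted, 1 cell to a well, as LSK CD48-/lo CD150+, a surface phenotype enriched for long-term repopulating stem cells, and per the series text 6 mice of 12 to 22 weeks were used in 2 experiments. All 282 cells form 1 group with no treated counterpart, so the values below describe this one population and how the 8 genes vary inside it.

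Of the 282 cells, 232 had at least 100000 gene counts and 1000 genes and were kept. Their totals ran from 116009 to 1680710 counts, with a median of 280096 counts and 5222 genes. The labels give each cell a library number that begins with 29 or 32 and an HSC code, which together define 6 sets. The 2 sets of L29 carry the codes HSC-3 (46 kept cells) and HSC-4 (43), and the 4 sets of L32 carry HSC-2 (22), HSC-3 (44), HSC-4 (38) and HSC-5 (39). The labels name no mouse, so a set cannot be equated with an animal, cells are not replicates of a condition, and no p-value is given. Set L29 HSC-4 had 4151 genes in its median cell against 5126.0 to 5685.5 in the other 5 sets, and mitochondrial genes took 6.66% of its counts against 3.28% to 3.73%. All 10 HSC markers examined, among them Procr, Hlf and Mecom, reached 10 CPM (counts scaled to a total of 1000000 per cell) in at least 10% of kept cells, whereas 0 of 6 myeloid, 0 of 6 T and NK cell and 0 of 4 mast cell markers did. Of the other lists, 1 of 5 erythroid markers (Hbb-bs, 11.2% of cells), 1 of 5 B cell markers (Cd79b, 24.6%) and 2 of 6 endothelial and stromal markers (Pecam1, 23.3%, and Col1a2, 15.9%) did.

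In mammals, methyl groups on the cytosine of CpG dinucleotides are placed on unmethylated DNA by the de novo methyltransferases Dnmt3a and Dnmt3b and are copied onto the new strand after replication by Dnmt1. Uhrf1 recognises hemimethylated CpG at the replication fork and recruits Dnmt1, and Hells is a chromatin remodeller needed for methylation of compacted DNA. Tet1, Tet2 and Tet3 oxidise methylcytosine to hydroxymethylcytosine and further products, which start its removal. In blood, Dnmt3a and Tet2 are known for restraining stem cell expansion, and both are frequent targets of mutation in clonal hematopoiesis.

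Dnmt1, Uhrf1 and Hells form the maintenance group. Their promoters are shown because these 3 genes varied with the replication genes in the cells described below, and E2F factors are the textbook regulators of replication genes. The 8-letter forms TTTCCCGC, TTTGGCGC, TTTCGCGC and TTTGCCGC of the E2F motif were searched on both strands of the RefSeq promoter windows, which span 250 bases before to 50 bases after a start site in build GRCm38.p6. Stretches of 30 bases around the 4 matches follow, each read 5′ to 3′ on the strand of its gene, with the match in capitals.
Dnmt1 upstream, chr9:20952824-20952853, minus strand: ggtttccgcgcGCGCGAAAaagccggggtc
Dnmt1 downstream, chr9:20952574-20952603, minus strand: gcgcggggcagcgTTTGGCGCgggctgtgc
Uhrf1, chr17:56304117-56304146, plus strand: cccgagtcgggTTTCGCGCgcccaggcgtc
Hells, chr19:38930917-38930946, plus strand: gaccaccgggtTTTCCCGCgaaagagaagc

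The first base of these matches lay 219 bases upstream and 33 bases downstream of a Dnmt1 start site, 185 bases upstream of a Uhrf1 start site and 62 bases upstream of the Hells start site. In GENCODE M21 both Dnmt1 matches and the Hells match fall in an exon of some transcript of the gene, and the Uhrf1 match falls in an intron of a longer transcript. A match was present in 1 of 3 windows of Dnmt1, 1 of 2 of Uhrf1 and the 1 window of Hells, and in 0 of 3 windows of Dnmt3a and 0 of 1 window each of Dnmt3b, Tet1, Tet2 and Tet3. Of all 32851 promoter windows in the table, 2.26% held a match, and 704 of 27025 genes (2.6%) had a match in any window. These shares are over all windows and genes, not over ones of like base composition. A match describes letters in these windows and is neither a binding site nor a cause.

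Dnmt1 (chromosome 9, 20907209 to 20959888, minus strand, build mm10) reached 10 CPM, the level called detected here and equal to 2.8 reads in the median cell, in 74 of 232 kept cells. That is 31.9% of cells, with an exact Clopper-Pearson 95% interval of 25.9% to 38.3%, and the share was 30.8% ± 7.85 (SD over the 6 sets). The lowest share was 18.2% in L32 HSC-2 and the highest 39.5% in L32 HSC-4. Dnmt1 was therefore below the threshold in most HSCs, yet where any read was present the median was 40 reads and the highest 506. The 10 cells richest in Dnmt1 held 41.3% of its 5830 reads.

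Uhrf1 (chromosome 17, 56303321 to 56323486, plus strand) was the least often detected of the 8 genes. It was found in 25 cells, or 10.8% (interval 7.10% to 15.5%), and in 11.1% ± 2.85 over the sets. Its 1534 reads were the most concentrated of the 8 genes, with 71.0% of them in 10 cells. Hells (chromosome 19, 38930915 to 38971051, plus strand) was found in 36 cells, or 15.5% (11.1% to 20.8%), ranging from 5.13% in L32 HSC-5 to 21.7% in L29 HSC-3. Its 10 richest cells held 61.1% of 3469 reads.

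The de novo enzymes were found about as often as Dnmt1. Dnmt3a (chromosome 12, 3806007 to 3914443, plus strand) was detected in 70 cells, or 30.2% (24.3% to 36.5%), and Dnmt3b (chromosome 2, 153649450 to 153687730, plus strand) in 74 cells, or 31.9% (25.9% to 38.3%). Over the sets the shares were 29.7% ± 7.46 for Dnmt3a and 31.1% ± 9.06 for Dnmt3b, so the 3 methyltransferases differed by less than the SD over sets. Cells with any read held a median of 38 reads of Dnmt3a and 41 of Dnmt3b. The antisense genes Dnmt3aos and Dnmt3bos overlap these loci in GENCODE M21, with 9 reads and 1 read in the kept cells. The use of strand in counting is not given here, so sense and antisense reads cannot be told apart.

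At least 1 of the 3 methyltransferases was detected in most HSCs, and seldom all of them. Dnmt1 alone was detected in 30 cells, Dnmt3a alone in 36 and Dnmt3b alone in 31. The combinations of 2 enzymes were found in 12 cells (Dnmt1 and Dnmt3a), 21 cells (Dnmt1 and Dnmt3b) and 11 cells (Dnmt3a and Dnmt3b). All 3 were detected in 11 cells, which had 7432 genes in the median cell, against 5048 genes in the 80 cells, or 34.5%, where none of them was detected. Dnmt3a or Dnmt3b was found in 122 cells, or 52.6%.

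Among the erasers, Tet2 (chromosome 3, 133463679 to 133545139, minus strand) was detected in 43 cells, or 18.5% (13.8% to 24.1%), and Tet3 (chromosome 6, 83362373 to 83459084, minus strand) in 49 cells, or 21.1% (16.1% to 26.9%). Their shares over sets were 17.9% ± 8.06 and 21.3% ± 7.09, which overlap. Tet1 (chromosome 10, 62804570 to 62899118, minus strand) was detected in 121 cells, or 52.2% (45.5% to 58.7%), the highest share of the 8 genes. The share of Tet1 was also the most variable, at 50.5% ± 26.1 over sets. It was 82.6% and 83.7% in the L29 sets HSC-3 and HSC-4 and 45.5%, 34.1%, 31.6% and 25.6% in the L32 sets HSC-2 to HSC-5, with no overlap. Among the 9689 genes found in at least 10% of kept cells, 5.69% had a share that was higher in both L29 sets than in all 4 L32 sets. Uhrf1 was the 1 member whose share was lower in both L29 sets (7.0% and 8.7% against 10.3% to 13.6%), as it was for 22% of the genes.

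**Figure D1:**
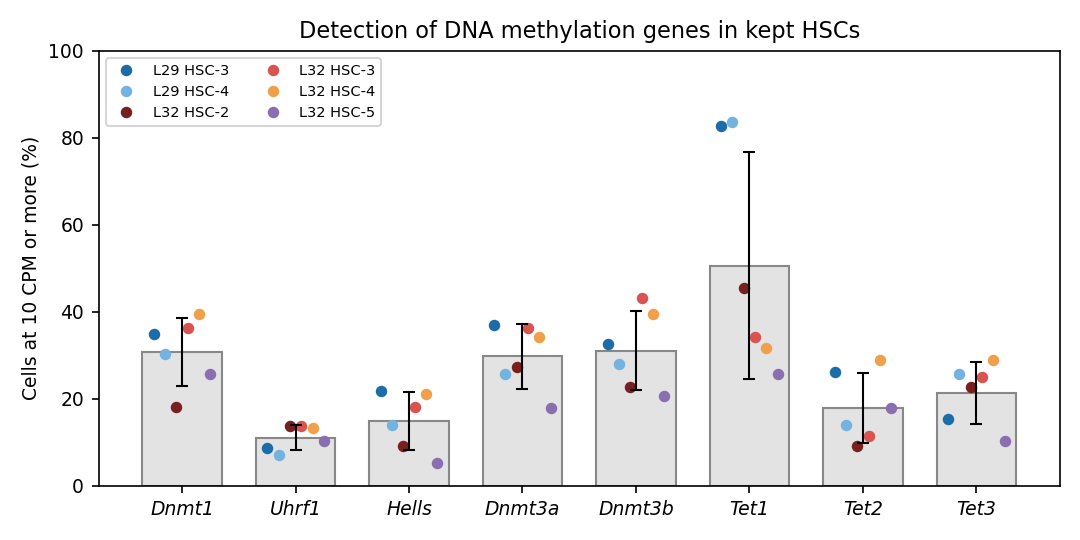
Share of kept cells at 10 CPM or more (percent) for each gene. Bars are means over the 6 sets, error bars are the SD over sets and dots are the sets. Tet1 is the gene whose L29 dots (82.6% and 83.7%) stand clear above its L32 dots (25.6% to 45.5%).

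Tet1 reads also differed in kind from those of the other members. At least 1 read was present in 197 cells, or 84.9%, but the median in those cells was 4 reads, and in the 121 cells at 10 CPM the median was 34.3 CPM against 120 to 237 CPM for the other 7 members in their own detected cells. Every kept cell of L29 held a Tet1 read, with medians of 6.5 and 7 reads in HSC-3 and HSC-4, while 18 of 22, 35 of 44, 29 of 38 and 26 of 39 cells of the L32 sets HSC-2 to HSC-5 did. The median over all cells was 10.5 reads in L32 HSC-2, above both L29 sets, and 2 reads in each other L32 set. Above 30 reads, Tet1 was present in 21 cells, which held 1676 of its 2769 reads. Tet1 thus combined a low count in nearly all cells with a high count in few.

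A background for these counts came from 38 wells of plate 2 of L32 that failed the filter and in which spike-in reads outnumbered gene reads. Only wells in odd plate columns were taken. They carried the codes HSC-2 and HSC-3, and together had 616795 gene reads. Tet1 was read in 36 of the 38 near-empty wells, with a median of 5.5 reads and a maximum of 28. The 66 kept cells of the same 2 sets held a median of 3 Tet1 reads. All kept cells of L32 HSC-2 and part of those of L32 HSC-3 came from the other plate. The comparison of near-empty wells and kept cells is therefore also in part one of plates, for every gene. As a share of gene reads, Tet1 stood at 621 CPM in the near-empty wells and 38.5 CPM in those kept cells. Relative to the spike-in RNA the order was the opposite, with 75.2 Tet1 reads per 1000000 spike-in reads in the near-empty wells and 526 in the kept cells. By this measure each kept set stood above the near-empty wells, at 2115 and 697 in L29 HSC-3 and HSC-4 and at 191 to 1048 in L32. That direction was largely set in advance, because the near-empty wells were chosen as wells with more spike-in than gene reads. The near-empty wells held a median of 120950 spike-in reads, against 9793.5 to 24568.5 in the kept sets. Only 22 of 232 kept cells, or 9.48%, had more Tet1 reads than every near-empty well. The scales thus differ, and no near-empty wells were taken from L29. The 52.2% of cells with Tet1 at 10 CPM are therefore not equated with cells expressing Tet1. The part of this background in the difference between L29 and L32 was not tested.

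The other members had little signal in the near-empty wells outside single wells. Dnmt1 had 4 reads there, Uhrf1 1, Hells 5, Tet2 4 and Dnmt3a 25, which is 6.49, 1.62, 8.11, 6.49 and 40.5 CPM against 83.7, 18.6, 42.0, 19.4 and 67.6 CPM in the kept cells of the same sets. Dnmt3b stood at 232 CPM against 94.0 CPM, but 114 of its 143 reads came from 1 well. Tet3 stood at 79.4 CPM against 75.5 CPM, with 42 of its 49 reads in 1 well. Relative to spike-in RNA both genes were lower in the near-empty wells, with 28.1 against 1286 reads of Dnmt3b and 9.62 against 1033 reads of Tet3 per 1000000 spike-in reads. The choice of wells with more spike-in than gene reads largely set this direction too. The 3 members with a higher CPM in the near-empty wells, Tet1, Dnmt3b and Tet3, compare with 21.3% of the 9689 genes. More Dnmt1 reads than in any near-empty well were present in 79 kept cells, and the same held for Uhrf1 in 26, Hells in 35, Dnmt3a in 58, Dnmt3b in 13, Tet2 in 46 and Tet3 in 23.

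**Figure D2:**
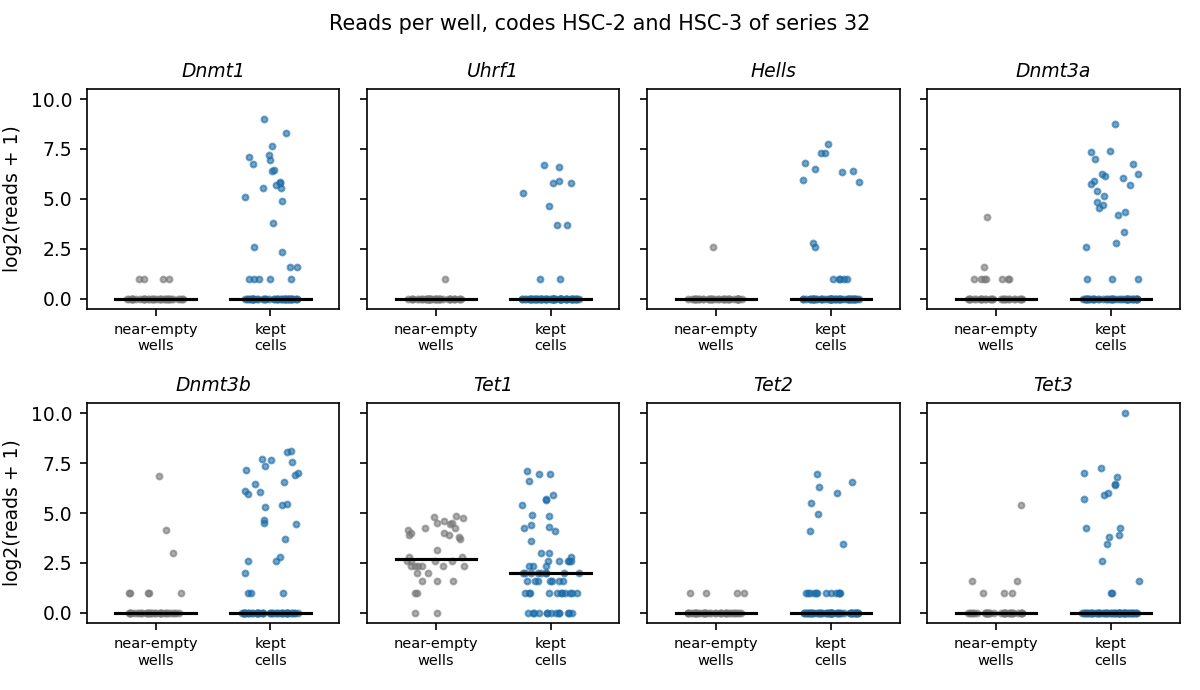
Reads of each gene per well, as log2(reads + 1), in the 38 near-empty wells (grey) and the 66 kept cells (blue) of codes HSC-2 and HSC-3 of L32. Each dot is a well and each line a median. Tet1 alone has a median above 0 in the near-empty wells (5.5 reads, against 3 reads in the kept cells).

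Levels were compared between genes per length, as CPM of the summed counts of a set divided by the kilobases of exon in the deposited table. Dnmt3b stood highest at 13.0 ± 5.16 CPM per kb (SD over 6 sets), followed by Dnmt1 at 10.1 ± 4.51, Hells at 6.24 ± 4.39, Uhrf1 at 4.74 ± 1.68, Dnmt3a at 4.16 ± 1.55, Tet3 at 3.18 ± 2.30, Tet1 at 2.71 ± 2.04 and Tet2 at 1.61 ± 0.713. Neighbours in this order were not separated by their spread. Dnmt1 was above Dnmt3b in 2 of 6 sets and above Hells in 4 of 6, Uhrf1 was above Dnmt3a in 3 of 6, and Tet1 was above Tet2 in 3 of 6. Among genes farther apart, Dnmt3b was above Uhrf1, Dnmt3a, Tet1, Tet2 and Tet3 in 6 of 6 sets each, and Dnmt1 and Dnmt3a were above Tet2 in 6 of 6. Other distant genes were ordered in 5 of 6 sets, such as Dnmt1 above Dnmt3a, Tet1 and Tet3 and Hells above Tet1 and Tet2. Divided by the length of the principal transcript in place of all exons, Tet3 was above Dnmt3a in 4 of 6 sets instead of 1 and Dnmt3b above Tet3 in 4 of 6 instead of 6, since the exons of Tet3 cover 16.695 kb and its principal transcript 5.944 kb. On that scale Dnmt3a was above Tet2 in 5 of 6 sets. A single cell of L32 HSC-2 held 1029 of the 1204 Tet3 reads of its set, and without it, a step added after the data were seen, Tet3 in that set fell from 7.41 to 1.24 CPM per kb of exon.

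Set beside the de novo enzymes, Dnmt1 made up 37.3% ± 12.4 of the summed level of the 3 methyltransferases per kb of exon. Dnmt3b made up 47.1% ± 10.7 and Dnmt3a 15.6% ± 4.13. The Dnmt1 share was 35.0% and 42.3% in the L29 sets HSC-3 and HSC-4 and 41.9%, 46.7% and 44.6% in the L32 sets HSC-3, HSC-4 and HSC-5. Set L32 HSC-2, with the fewest cells, stood below all of them at 13.3%, where Dnmt1 was at 24.4 CPM against 56.8 to 123 CPM in the other sets. The maintenance enzyme was thus present at a level below that of the de novo enzymes together in every set. Dnmt3a had the smallest share in 5 of 6 sets and Dnmt1 in L32 HSC-2. Without division by length the shares were 35.5%, 31.2% and 33.3% for Dnmt1, Dnmt3b and Dnmt3a, so the low place of Dnmt3a rests on its long exons (16.642 kb against 5.106 kb for Dnmt3b).

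Within the Tet family, Tet3 made up 41.4% ± 16.1 of the summed level per kb of exon, Tet1 33.8% ± 18.2 and Tet2 24.7% ± 10.8. No member held 1 rank throughout. Tet1 was the leading member in L29 HSC-3 (66.6%) and L29 HSC-4 (35.2%), Tet3 in L32 HSC-2, HSC-3 and HSC-4 (54.1% to 55.8%), and Tet2 in L32 HSC-5 (37.9%). Per kb of principal transcript Tet3 led in 5 of 6 sets (57.4% ± 16.4), and Tet1 in L29 HSC-3. In L32 HSC-2, Tet1 led with 55.9% in the mean over cells, and with 69.3% of summed counts per kb of exon without the 1 cell rich in Tet3. These shares count the Tet1 reads that were also present in the near-empty wells. The summed CPM of L29 and L32 sets overlapped for all 8 members, while 13.7% of the 9689 genes were higher and 9.95% lower in both L29 sets than in all L32 sets.

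**Figure D3:**
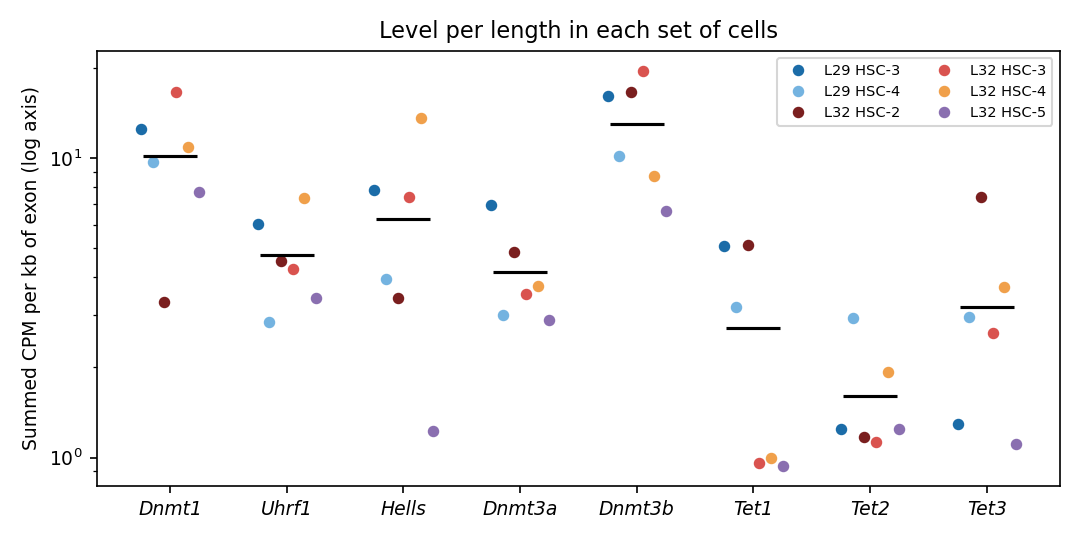
Level of each gene per kb of exon (CPM of summed counts, log axis) in the 6 sets (dots), with the mean over sets (line). Dnmt3b and Dnmt1 lie highest, and the Dnmt1 dot of L32 HSC-2 (3.30) lies apart from the other 5 (7.70 to 16.7).

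The maintenance genes were found together. Hells was detected in 17 of the 25 cells with Uhrf1, or 68.0%, against 9.18% of the cells without it, and the difference had the same direction in 6 of 6 sets. Dnmt1 was detected in 72.0% of the Uhrf1 cells against 27.1% of the others and in 69.4% of the 36 Hells cells against 25.0%, each in 5 of 6 sets. All 3 maintenance genes were detected in 15 cells. Cells with Uhrf1 and with Hells had more genes in the median cell (6393 and 6319.5) than cells without (5121 and 5082.5). After each cell was thinned to 100000 counts, with 1 read taken as detection, Hells was found in 65.5% of Uhrf1 cells and in 11.3% of the others.

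The other pairs showed smaller differences. Dnmt3b was detected in 31.4% of the cells with Dnmt3a and 32.1% of those without, so the share of Dnmt3b hardly differed with the presence of Dnmt3a. Dnmt3b was detected in 43.2% of Dnmt1 cells against 26.6%, in 4 of 6 sets. Hells was detected in 25.7% of Dnmt3a cells against 11.1%, in 5 of 6 sets. Tet3 was detected in 30.2% of Tet2 cells against 19.0%, in 6 of 6 sets. These counts of sets, and those of the maintenance genes above, have no share over all pairs of genes beside them. The shares by set were also not adjusted for genes detected.

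A replication score was taken as the mean log2(CPM/10 + 1) of 50 genes of DNA replication, none of them a member. They cover the Mcm helicase, Gins, Rfc clamp loader, polymerase and nucleotide supply genes, and those with the highest mean CPM were Mcm6 (330 CPM), Rfc2 (219), Mcm3 (176), Dut (143) and Slbp (129). The median cell had 10 of the 50 at 10 CPM, and cells ranged from 0 to 48. For each gene a partial Spearman rho with the score was computed across the cells of a set, given the ranks of total counts and of genes detected and the plate. The mean rho over sets is weighted by cells, so L32 HSC-2 with 22 cells counts least, and the SD beside it is not weighted. The points of such a correlation are cells that share libraries, depth and many zeros, so rho is given as a description.

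Dnmt1, Uhrf1 and Hells were higher in cells with a higher replication score, while the mean rho of the other 5 members lay within the range of most genes. Mean rho was 0.336 ± 0.278 (SD over 6 sets) for Dnmt1, 0.222 ± 0.153 for Uhrf1 and 0.336 ± 0.130 for Hells. Over all 9630 genes with a value in every set the median was 0.015, with 5th and 95th percentiles of -0.119 and 0.157. Only 6 of these genes had a larger mean rho than Dnmt1, 7 than Hells and 90 than Uhrf1. The value of rho was positive in 6 of 6 sets for 2 members, Uhrf1 (0.121 to 0.497) and Hells (0.111 to 0.516), compared with 3.9% of all genes tested. Dnmt1 was positive in 5 sets (0.271 to 0.515) and negative in L32 HSC-2 (-0.247), and without that set its mean rho was 0.387 and 3 members were positive in every remaining set.

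The de novo enzymes had mean rho of -0.032 ± 0.079 (Dnmt3a) and 0.015 ± 0.148 (Dnmt3b), near the median of all genes. The value of Dnmt3a turned positive with the filter of 200000 counts and 2000 genes (0.068), with the plate as the only covariate (0.078) and with total counts and plate (0.071). The Tet genes had -0.018 ± 0.181 (Tet1), -0.082 ± 0.108 (Tet2) and -0.081 ± 0.293 (Tet3). None of the 8 members was negative in 6 of 6 sets, as 1.44% of all genes were. Tet3 was positive in L32 HSC-2 (0.513) and between -0.298 and 0.003 in the other 5 sets. In L32 HSC-2, Tet3 stood at 201 CPM in the upper-scoring cells and had 0 reads in the lower-scoring ones. Without the 1 cell with 1029 reads the upper value was 37.2 CPM.

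**Figure D4:**
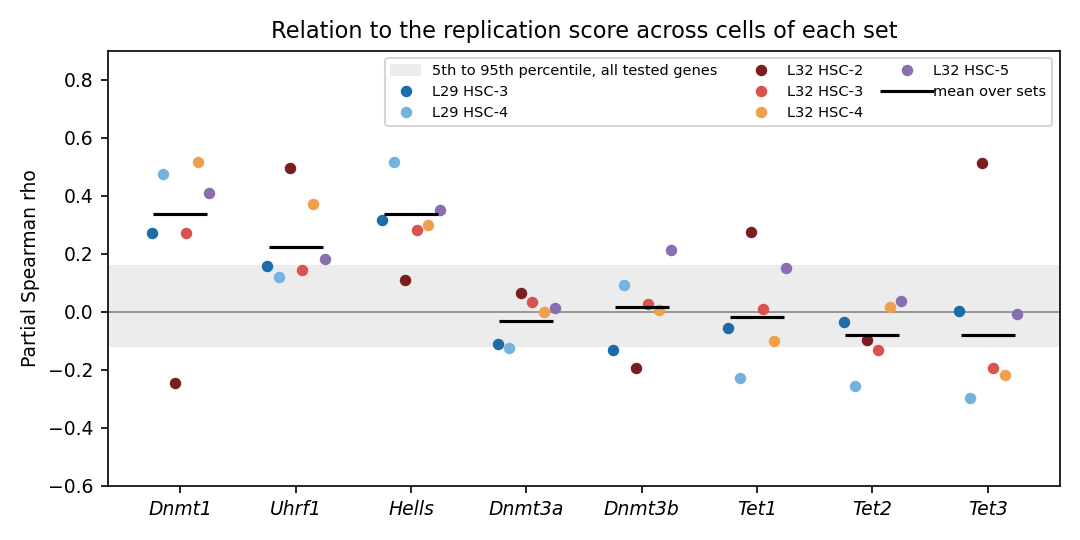
Partial Spearman rho of each gene with the replication score, across the cells of each set (dots), with the mean over sets weighted by cells (line). The grey band runs from the 5th to the 95th percentile of the mean rho of all tested genes (-0.119 to 0.157). The means of Dnmt1 (0.336), Hells (0.336) and Uhrf1 (0.222) lie above the band and those of the other 5 genes inside it.

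The same relation can be read from detection. The cells of each set were divided at the median of the score after removal of the same covariates, giving 115 upper-scoring and 117 lower-scoring cells with similar depth (medians of 274419 and 282295 counts, and of 5259 and 5208 genes). Dnmt1 was detected in 47.0% of upper-scoring cells (37.6% to 56.5%) and 17.1% of lower-scoring cells (10.8% to 25.2%). Uhrf1 was detected in 20.0% (13.1% to 28.5%) and 1.71% (0.208% to 6.04%). Hells was detected in 26.1% (18.3% to 35.1%) and 5.13% (1.90% to 10.8%). Thinned to 100000 counts, the shares were 47.0% and 19.7% for Dnmt1, 20.9% and 4.27% for Uhrf1 and 27.0% and 9.40% for Hells.

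In summed counts, Dnmt1 stood at 151, 127, 33.5, 209, 174 and 82.1 CPM in the upper-scoring cells of the 6 sets in the order given above. In the lower-scoring cells of the same sets it stood at 31.9, 13.5, 9.63, 59.9, 14.1 and 29.9 CPM. Every upper value exceeded the lower value of its own set. In L32 HSC-2, where rho was negative, this rests on 4 cells with Dnmt1, and the share of cells was 18.2% among both upper-scoring and lower-scoring cells. Over all sets the level was 128 CPM against 29.7 CPM, a ratio of 4.32.

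Uhrf1 was almost confined to the upper-scoring cells, with 1489 of its reads there and 45 in the lower-scoring ones. It stood at 50.6, 23.5, 31.4, 39.1, 75.7 and 25.8 CPM in the upper-scoring cells of the 6 sets and at 0 to 2.95 CPM in the lower-scoring ones. The upper and lower values of Uhrf1 did not overlap across sets. Hells stood at 76.1, 55.8, 39.9, 101, 189 and 17.1 CPM in the upper-scoring cells and at 35.8, 0, 0.268, 19.1, 33.5 and 0 CPM in the lower-scoring ones, higher in each set but overlapping across sets. Dnmt1, Uhrf1 and Hells were the 3 members with a higher CPM in the upper-scoring cells in 6 of 6 sets, compared with 2.84% of the 9689 genes. By share of cells, the upper-scoring cells were higher in 5 sets for Dnmt1 and in 6 each for Uhrf1 and Hells.

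For the remaining members the intervals of the shares overlapped. Dnmt3a was detected in 32.2% of upper-scoring and 28.2% of lower-scoring cells, and Dnmt3b in 34.8% and 29.1%. Both de novo enzymes were higher in CPM in the upper-scoring cells in 4 of 6 sets. Tet1 was detected in 53.0% and 51.3%, Tet2 in 17.4% and 19.7%, and Tet3 in 20.9% and 21.4%. Over all sets Dnmt3b stood at 67.5 and 65.2 CPM and Dnmt3a stood at 84.4 and 54.2 CPM, a ratio of 1.56, with the widest gap in L32 HSC-5 (83.3 against 10.4 CPM). Tet3 stood at 48.9 and 49.8 CPM, but 1029 of its 1793 upper reads came from the 1 cell of L32 HSC-2, and without it the upper value was 21.6 CPM. Tet3 was higher in the upper-scoring cells in 1 of 6 sets, L32 HSC-2, and lower in the other 5.

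**Figure D5:**
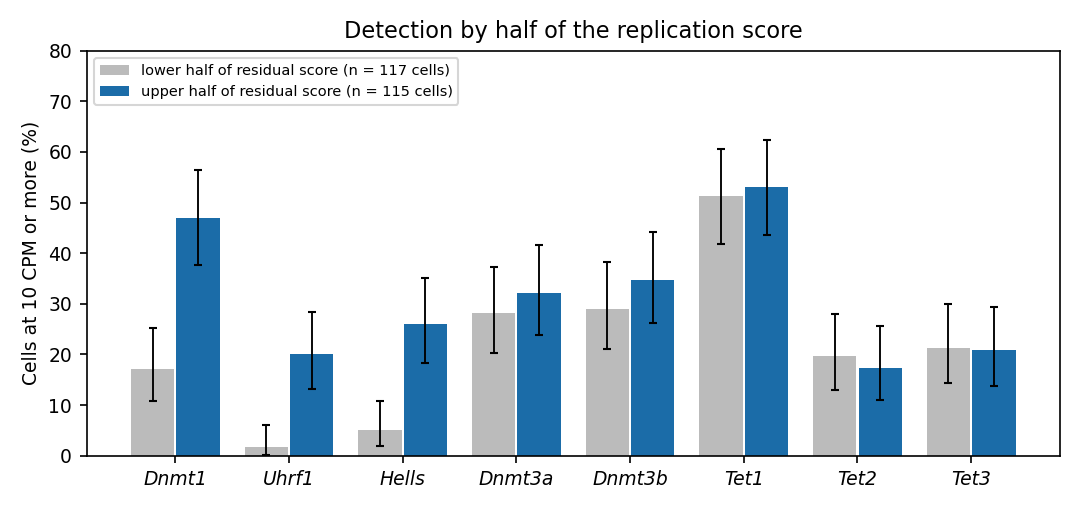
Share of cells at 10 CPM or more (percent) among the 117 cells with a lower (grey) and the 115 cells with a higher (blue) replication score in their set, after removal of depth and plate. Error bars are exact 95% intervals, which cover counting error only. The intervals of Dnmt1, Uhrf1 and Hells do not overlap and those of the other 5 genes do.

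Few of the HSCs carried many transcripts of later cell cycle stages. Of 30 G2/M genes, 3 or 4 reached 10 CPM in 24 cells. At least 5 did so in 8 cells, or 3.45% (1.5% to 6.68%), spread over 5 of the 6 sets. Hells was detected in 7 of these 8 cells, Dnmt1 and Uhrf1 in 6 each, Dnmt3a, Dnmt3b and Tet1 in 4 each, Tet3 in 2 and Tet2 in 1. The 8 cells had more genes in the median cell (6903.5) than the other 224 (5207.5), and 39 of the 50 replication genes against 9. Without them the mean rho was 0.327 for Dnmt1, 0.161 for Uhrf1 and 0.285 for Hells, positive in 5, 6 and 6 of 6 sets. Uhrf1 was then detected in 15.9% of upper-scoring and 1.71% of lower-scoring cells.

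Other genes of the pathway were read from 6 lists with 56 entries, of which 44 reached 10 CPM in at least 10% of kept cells. Of these 44, 8 had a positive rho with the replication score in 6 of 6 sets and 0 a negative one, compared with the 3.9% and 1.44% of all genes given above. Of the partners of maintenance methylation, 3 of 6 tested were positive in every set, with a median rho of 0.143 against 0.015 over all genes. These were Cdca7, which activates Hells (176 CPM, rho 0.297 ± 0.125), the ligase Lig1, which binds Uhrf1 (74.1 CPM, rho 0.294 ± 0.085), and the sliding clamp Pcna, which binds Dnmt1 (106 CPM, rho 0.164 ± 0.107). Pcna and Lig1 are also on the replication list, each left out of its own score, and 18 of the 39 tested genes of that list were positive in every set. Without these genes 1 of 4 partners was positive in every set, and the median rho was 0.073. The related Cdca7l stood at 158 CPM with a rho of 0.122, positive in 5 sets.

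Among genes that act with the de novo enzymes, 1 of 9 tested was positive in every set, the histone H3K36 methyltransferase Setd2 (94.3 CPM, rho 0.198 ± 0.073). The most abundant were the corepressor Trim28 (129 CPM), the H3K36 methyltransferase Nsd1 (109 CPM) and the heterochromatin protein Cbx5 (107 CPM). Dnmt3l, the catalytically inactive partner of the Dnmt3 enzymes, had 10 reads in all and reached 10 CPM in 0 of 232 cells, which allows a share of up to 1.29% by the limit of 3 cells used for a count of 0.

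Among Tet partners and enzymes of the Tet cosubstrate, Ogt, the O-GlcNAc transferase that binds Tet proteins, was found in 77.2% of cells (414 CPM). Idh2 stood at 223 CPM and Idh3a at 148 CPM, and of the 7 genes tested Idh3a was the 1 with a positive rho in every set (0.186 ± 0.089). In base excision, which removes oxidised cytosine, 8 of 12 genes were tested. Parp1 was the most abundant (177 CPM) and the 1 positive in every set (rho 0.185 ± 0.128), followed by Xrcc1 (57.7 CPM) and Polb (56.7 CPM). The glycosylase Tdg, which excises the products of Tet oxidation, stood at 6.96 CPM and was detected in 14.2% of cells.

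Among readers of methylated CpG and related proteins, 5 of 7 genes were tested. Zbtb38 (69.3 CPM) and the related Mbd3 (41.2 CPM) were among the most abundant. Zbtb38 was the 1 positive in every set (rho 0.146 ± 0.121), and its CPM was higher in the near-empty wells (50.3) than in their companion kept cells (34.5). In the supply of the methyl donor, Mat2a, which makes S-adenosylmethionine, was found in 88.8% of cells (794 CPM). Its regulatory subunit Mat2b stood at 219 CPM and the serine hydroxymethyltransferase Shmt2 at 146 CPM. Of the 9 genes tested in this list, the folate enzyme Mthfd1 was positive in every set (100 CPM, rho 0.206 ± 0.176).

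For each member the 3 genes most like it were taken as those with the largest mean partial rho across cells among genes with 1 sign in 6 of 6 sets. They are a selection from 7968 named genes compared with each member, so their values are a description. For Uhrf1 these included Fignl1 (0.662) and Hells (0.444), and for Hells they were Fignl1 (0.553), Uhrf1 (0.444) and Lig1 (0.434). Hells and Uhrf1 were the 2 members that named each other, with rho between 0.364 and 0.555 in every set. Dnmt1 was most like Sdf2l1 (0.346), Mrpl18 (0.296) and Utp20 (0.290), and its rho with Uhrf1 (0.205) and Hells (0.179) was positive in 4 and 5 sets.

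The values for the remaining members were at most 0.300. They included 0.300 and 0.239 for Dnmt3a (Slc39a9, Ripk1) and were 0.267, 0.264 and 0.249 for Dnmt3b (Inafm2, Cyp51, Soat1). They were 0.289, 0.252 and 0.245 for Tet1 (Sh3rf1, Ints8, Entpd5). For Tet2 (Nlrc5, Ap5z1, Psmb1) they were 0.273, 0.248 and 0.233, and for Tet3 (Agpat3, Ankle2, Cabcoco1) 0.245, 0.236 and 0.213. Of the genes named in this way, Sh3rf1 and Ints8 had, like Tet1, a higher CPM in the near-empty wells. The same held for Utp20 (named for Dnmt1), Soat1 (Dnmt3b) and Ap5z1 (Tet2), and for 21.3% of the 9689 genes. Dnmt3a and Dnmt3b had a mean rho of -0.010 with each other, and Tet2 and Tet3 of 0.104.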

How the data were processed

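Per the labels' protocols, poly(A) RNA of single sorted cells was reverse-transcribed with template switching and amplified in 22 PCR cycles, and 700 pg of cDNA was tagmented. The authors deposited whole-number counts of reads for every gene in each cell. GSNAP and featureCounts (version 1.6.2) were run with mm10, per the submitters' processing notes. The name of the deposited table gives Ensembl release 87. No molecular identifiers were used, so intervals and floors cover counting error only. The sources used here do not give how strand and reads with several loci were handled.

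From the deposited counts, CPM were computed over the Ensembl genes. The 92 spike-in rows, with 11.7% of all counts, and 1 transgene row stayed out. The sort was meant to place 1 cell in each well, and no doublet caller was run. Partial Spearman correlations were computed per set in Python 3.11.15 (numpy 2.4.6, scipy 1.17.1) and averaged as Fisher z weighted by cells. They were tried on simulated counts that had no planted differences between sets. That trial does not cover all features of these data. Genes needed 10 CPM in at least 10% of kept cells. The alternatives changed detection, cell filter, covariates, score, scaling (scran 1.30.0 in R 4.3.3), length and sets.

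The members and the gene lists were chosen with earlier results of these data known. The genes named are the 8 members, the 3 most abundant of each pathway list and those with 1 sign in 6 of 6 sets, the 5 most abundant replication genes and the 3 genes most like each member. Tdg, Dnmt3l and the HSC markers fall outside this rule and were chosen after their values were seen. A few genes chosen in this way are not reported here.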

Additional observations from a re-analysis of the deposited data

Results flagged for a closer look

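Both results below were noted because 1 of the 6 sets lay far from the other 5, by Dixon's ratio of the gap to the range. Of 24 groups of 6 sets examined in this way (share, level and rho of the 8 members) 2 were noted, and chance gives about 1 in 20 groups, or 1.2 here. The rho of Dnmt1 with the replication score was -0.247 in L32 HSC-2 and 0.271 to 0.515 in the other sets. In that set Dnmt1 was detected in 4 of 22 kept cells, and in 18.2% of both upper-scoring and lower-scoring cells. The rho of Tet3 with the replication score was 0.513 in L32 HSC-2 and -0.298 to 0.003 in the other sets. In that set Tet3 was detected in 5 of 22 kept cells, all of them upper-scoring. L32 HSC-2 had the fewest kept cells, and its part in either value was not tested further.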

How the results depend on the processing

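All 8 members stayed at 10% of cells or more under each of the 11 alternatives of detection, cell filter and left-out set. The Dnmt1 share of the summed Dnmt level moved by less than its SD over sets in every alternative and was 35.4% to 42.1% with 1 set left out. The mean rho of Dnmt1, Hells and Uhrf1 stayed positive in every alternative in which it was computed, at 0.272 to 0.420, 0.285 to 0.454 and 0.161 to 0.397, the last with Uhrf1 also taken without the G2/M cells. The count of members with a positive rho in 6 of 6 sets fell from 2 to 0 when only genes found in at least 20% of cells were tested, which leaves out Uhrf1 and Hells by construction. It fell to 1 without the 8 cells with at least 5 G2/M genes, an alternative added after the data were seen, because Uhrf1 then dropped under 10% of cells. The median rho of the members rose from -0.001 to 0.119 with the plate as the only covariate and to 0.106 with total counts and plate, so the adjustment for genes detected matters for this median. With 1 read as detection, the shares of Uhrf1, Hells, Dnmt3a, Tet1 and Tet2 moved by more than their SD over sets, Tet1 to 84.9%. With a filter of 200000 counts and 2000 genes, as with the filter used, 0 of 8 members had a CPM that did not overlap between library series. No paired analysis was possible because all cells form 1 group. The values of Uhrf1 and Hells rest on 25 and 36 cells. The Dnmt3a rho was -0.105 to 0.078 over the alternatives and positive in 3 of 17.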
